A study of Mus musculus with 4 samples.

Results

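Conventional dendritic cells are described here in KPCA ascites of mice and in omental tumors of 3 mouse cancer lines, named KPCA.A to KPCA.C, measured by droplet single-cell RNA sequencing. They were chosen by their counts of unique molecular identifiers (UMIs, each standing for 1 captured transcript). A barcode was taken with at least 5 UMIs of the MHC class II gene H2-Ab1, at least 2 UMIs summed over Flt3, Zbtb46, Xcr1, Clec9a and Cd209a, at most 2 UMIs summed over C1qa, C1qb and C1qc, and none of the B cell gene Cd79a or the T cell gene Cd3e. Barcodes with at least 1 UMI each of Ccr7 and Fscn1, genes of mature dendritic cells, were left out. This gave 108 of the 11253 cells that passed the filter on genes, UMIs and mitochondrial share (0.96%). Each group had 1 library, so nothing below could be checked against replicates, and the 95% intervals take in counting error and no other.

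The mice were C57BL6J, 8 weeks old for the tumors and 9 weeks old for the ascites, and each tumor library pooled 4 tumors. The labels give the cell type of all libraries as fallopian tube epithelium. The genotype of the lines, any treatment, the number of mice behind the ascites and the line that gave the ascites are not given in the sources used here. Libraries are given in the order KPCA.A, KPCA.B, KPCA.C, ascites. Total counts were 58591493, 40054369, 95130645 and 7420674 UMIs, and the median depth of the kept cells was 7910, 7958, 14660 and 2077 UMIs. The ascites thus stood apart in depth. Of the 108 barcodes, 0 recurred in another library.

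Conventional dendritic cells take up antigen in tissues and present it to T cells on MHC molecules, and they depend on the receptor Flt3. The type named cDC1 needs the transcription factors Irf8 and Batf3, carries the chemokine receptor Xcr1 and the dead-cell receptor Clec9a, and is known for presenting tumor antigen to CD8 T cells. The type named cDC2 uses Irf4, carries Sirpa and, in mice, often the lectins Cd209a and Mgl2, and is known for priming CD4 T cells.

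Of the genes that chose the cells, Xcr1, Clec9a and Cd209a split them most sharply, so the stretch around the start of each of these 3 genes is printed, with 250 bases before and 50 after the start, read in the direction of the gene (RefSeq, GRCm38.p6).
Xcr1, chr9:123861980-123862279, minus strand: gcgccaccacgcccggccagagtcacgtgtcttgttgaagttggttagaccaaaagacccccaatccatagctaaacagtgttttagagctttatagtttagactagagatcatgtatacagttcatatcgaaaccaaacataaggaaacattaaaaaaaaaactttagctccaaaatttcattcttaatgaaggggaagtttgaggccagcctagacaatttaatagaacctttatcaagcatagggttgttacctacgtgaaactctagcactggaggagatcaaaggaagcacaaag
Clec9a, chr6:129408612-129408911, plus strand: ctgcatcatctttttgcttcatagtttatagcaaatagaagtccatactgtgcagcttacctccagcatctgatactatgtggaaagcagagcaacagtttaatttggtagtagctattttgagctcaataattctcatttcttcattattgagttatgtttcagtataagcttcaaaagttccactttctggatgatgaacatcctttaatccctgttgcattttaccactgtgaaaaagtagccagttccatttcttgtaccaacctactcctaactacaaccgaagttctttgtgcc
Cd209a, chr8:3748935-3749234, minus strand: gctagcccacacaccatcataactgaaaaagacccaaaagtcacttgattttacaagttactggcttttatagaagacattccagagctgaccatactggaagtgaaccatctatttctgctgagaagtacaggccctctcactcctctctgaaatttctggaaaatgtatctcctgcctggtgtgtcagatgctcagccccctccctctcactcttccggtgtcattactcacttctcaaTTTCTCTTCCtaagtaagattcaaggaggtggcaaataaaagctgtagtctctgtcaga
Capitals mark the only match found to 3 motifs searched on both strands. It is TTTCTCTTCC, which begins 9 bases before the start of Cd209a and runs over the start. It is a match on the other strand to GGAA and GAAA with any 2 bases between them. That is the composite site of ETS and IRF factors, which 2.72% of 32851 promoters of this length hold. GAAA, any 2 bases and GAAA again, the interferon response element, is held by 3.44% of them and TGANTCA, the AP-1 site, by 7.81%. Of the 18 genes of the cDC1 list with a promoter in the table, 0 held the ETS-IRF site, 2 the interferon element (Ifi205, Tlr11) and 1 the AP-1 site (Cxcl9). Of the 18 of the cDC2 list, 1 held the ETS-IRF site (Cd209d), 0 the interferon element and 3 the AP-1 site (Clec12a, Clec4a2, Plet1). A match is a run of letters and not a site shown to be bound.

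The rule genes were at the following levels in the chosen cells, in CPM (the gene's UMIs over all UMIs summed across the cells of a library, scaled to 1000000), as a description of the choice. Xcr1 was at 139, 293, 116 and 0 CPM. Clec9a was at 69.3, 87.6, 59.7 and 136 CPM. Cd209a was at 315, 345, 205 and 272 CPM. Flt3, the growth factor receptor, was at 55.9, 74.6, 80.3 and 136 CPM, and the lineage factor Zbtb46 at 76.1, 87.6, 49.4 and 0 CPM. In ascites 1 UMI is worth 68.1 CPM, so its values there stand for 2 UMIs of Clec9a, 4 of Cd209a and 2 of Flt3.

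The chosen cells were 29 of 2648 kept cells in KPCA.A (1.095%, exact Clopper-Pearson interval 0.735 to 1.57%), 37 of 2586 in KPCA.B (1.43%, 1.01 to 1.97%), 39 of 3098 in KPCA.C (1.26%, 0.897 to 1.72%) and 3 of 2921 in ascites (0.103%, 0.0212 to 0.2999%). The intervals of the 3 tumors overlapped, and that of ascites lay below them. The chosen cells had more UMIs than the libraries at large, with medians of 9835, 11805, 17546 and 4891. With every cell thinned to 1500 UMIs, which left out 458, 216, 363 and 1114 shallower cells, the same rule found 0.479% (0.219 to 0.838%), 0.506% (0.262 to 0.883%), 0.292% (0.126 to 0.575%) and 0.0553% (0.00140 to 0.308%). At that depth the interval of ascites overlapped those of the tumors, so the lower share in ascites was not shown at equal depth.

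Just inside the limit, with a marker sum of exactly 2, were 4, 6, 15 and 2 of the chosen cells, and just outside, with a sum of 1 and every other condition met, were 13, 8, 21 and 18 more. In ascites the limit therefore held back many more cells than it let through. A marker sum of 1, a limit tried after the data were seen, gave 21 ascites cells (0.719%) against 42 (1.59%), 45 and 60 (1.94%) in the tumors.

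Genes of other cell types were concentrated in 17 of the 108 barcodes, which held 31.8% of all their UMIs. Collagen and matrix genes of fibroblasts (Col1a2, Col3a1 and Dcn) reached 22 to 1263 UMIs in 10 barcodes and at most 4 UMIs in any other, and 9 of these 10 had no UMI of the pan-leukocyte gene Ptprc. Siglech, a receptor gene of plasmacytoid dendritic cells, had 17 to 65 UMIs in 6 barcodes (4 in KPCA.B, 2 in KPCA.C) and at most 1 UMI in any other. All 6 carried Clec9a, at 1 to 6 UMIs, and none had a UMI of Xcr1. The keratins Krt8 and Krt18 had 94 to 220 UMIs in 3 barcodes of KPCA.A and at most 5 in any other. H2-Ab1 in the 17 ran from 5 to 112 UMIs. These barcodes held 51.5% of the UMIs of the chosen cells in KPCA.A, 19.6% in KPCA.B and 29.7% in KPCA.C. Whether they are pairs of cells, free RNA or cells of another type was not tested. The split was made after the data were seen, and unless stated otherwise the values below are from the remaining 91 barcodes (24, 31, 33 and 3), with the value over all 108 beside those it changes.

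**Figure D1:**
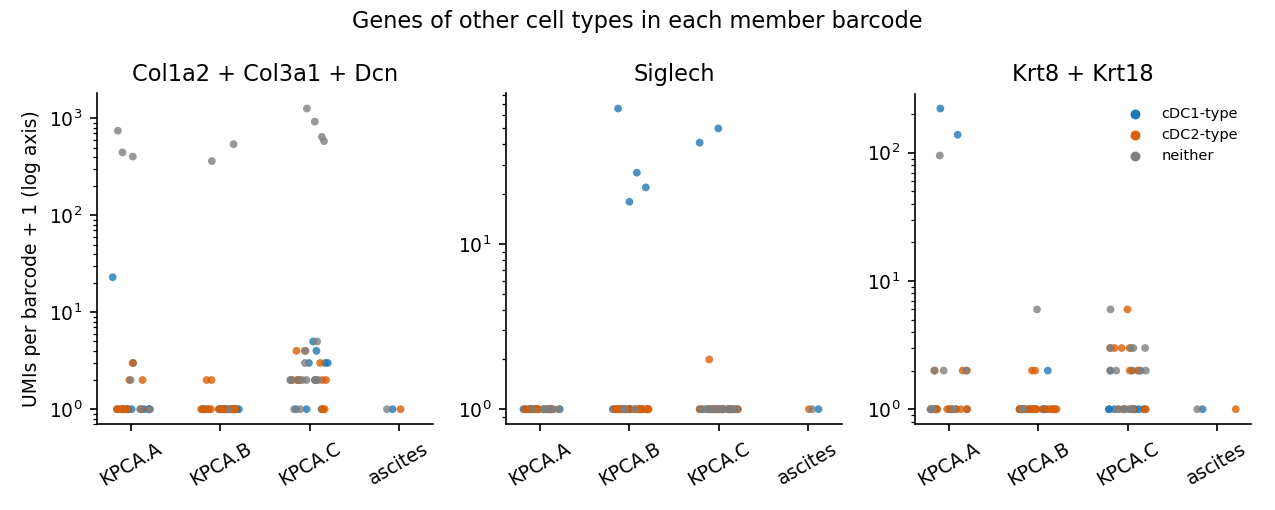
Each point is 1 of the 108 barcodes. The y axis (log) is its UMIs plus 1 for the fibroblast genes, Siglech and the keratins, by library (x axis), with colour for the type. High values sit in a few barcodes, with fibroblast genes at 22 to 1263 UMIs in 10 of them and at most 4 in the rest.

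In the 91 barcodes summed levels of marker lists for other cells were low for fibroblast and mesothelial genes, at 60.0, 11.6 and 129 CPM in the tumors and 0 in ascites, against 6259, 2623, 6828 and 0 CPM over all 108. The T and NK cell list was at 9.24, 6.96, 9.80 and 0 CPM and the epithelial list at 73.9, 16.2, 113 and 0 CPM. The B and plasma cell list was at 189, 1109, 246 and 0 CPM, highest in KPCA.B. The macrophage and monocyte list was at 1677, 2623, 2321 and 2792 CPM. The part of these transcripts in the results below was not tested.

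The cells fell into a cDC1-type, with Xcr1 or Clec9a and no Cd209a, and a cDC2-type, with Cd209a and neither of the others. None of the 108 had both kinds of marker, which allows a share of up to 2.78%, although the rule did not forbid it. Of all 11253 kept cells, 115 had Xcr1 or Clec9a, 158 had Cd209a and 4 had both. The cDC1-type made up 11 of 29 cells in KPCA.A (37.9%), 12 of 37 in KPCA.B (32.4%), 11 of 39 in KPCA.C (28.2%) and 1 of 3 in ascites. The cDC2-type made up 11 (37.9%), 22 (59.5%), 12 (30.8%) and 1. The other 7, 3, 16 and 1 cells had none of the 3 genes and entered by Flt3 and Zbtb46. Some cDC2-type cells of each tumor had no UMI of Flt3 or Zbtb46 and so entered by Cd209a alone. Whether those are conventional dendritic cells was not tested. Among the 91 barcodes the counts were 9, 8, 9 and 1 for the cDC1-type, 11, 22, 12 and 1 for the cDC2-type and 4, 1, 12 and 1 for neither, so the barcodes set aside were cDC1-type (8) or neither (9).

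**Figure D2:**
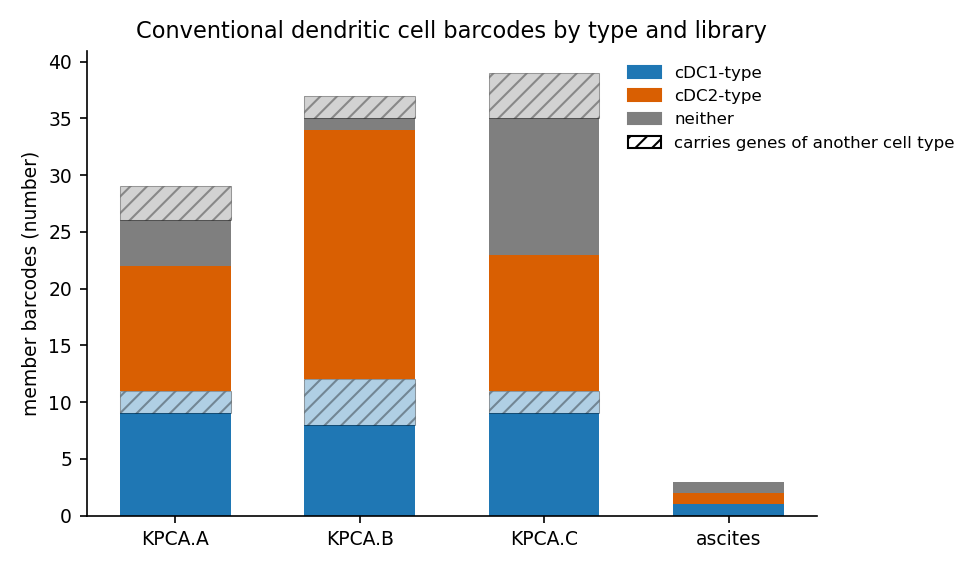
Bars give the number of chosen barcodes (y axis) in each library (x axis), stacked by type, and the hatched parts are the 17 that carry genes of another cell type. KPCA.B has 22 cDC2-type cells, against 11 in KPCA.A and 12 in KPCA.C.

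The next comparison asked how the 2 types differ beyond the genes that split them. It is a description, since the same cells were split, and it used the tumors (9 against 11 cells, 8 against 22 and 9 against 12). Of 4651 genes with at least 30 UMIs, 69 (1.48%) were at least 2-fold higher in the cDC1-type in all 3 tumors and 181 (3.89%) at least 2-fold lower, on a log2 scale with 20 CPM added. Of the 19 measured genes of the cDC1 list, 13 were 2-fold higher in all 3 tumors and all 19 lay above 0 in each, with a median log2 ratio of 2.50. Over all members with the 17 barcodes, 11 of 19 were 2-fold higher, with a median of 2.28, beside 1.09% of all genes.

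Irf8, the factor cDC1 development depends on, was at 2745 CPM in the cDC1-type of KPCA.A, 2571 in KPCA.B and 2325 in KPCA.C. In the cDC2-type it was at 58.8, 326 and 46.7 CPM, and 55 of the 71 UMIs of KPCA.B came from 1 barcode. The folds were 46.7 (21.1 to 129), 7.89 (6.14 to 10.3) and 49.8 (26.8 to 105). Irf8 was found in every cDC1-type cell of the tumors. Batf3, its partner, was closer between the types, at 371, 207 and 334 CPM against 127, 138 and 103.

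Id2, a repressor needed for cDC1, was at 1711, 1540 and 1289 CPM against 137, 170 and 556. Itgae, which encodes CD103, was at 570, 297 and 512 CPM in the cDC1-type and at 0, 9.18 and 60.7 CPM in the cDC2-type. The small GTPase gene Rab7b was at 172, 329 and 205 CPM against 0, 4.59 and 0, at least 5.86-fold higher in KPCA.A and at least 14.6-fold in KPCA.C with 3 UMIs set for 0. The lowest of the 3 cDC1-type levels lay above the highest cDC2-type level for each of these 3 genes. Among receptors and enzymes, Tlr3, the sensor of double-stranded RNA, was at 106, 324 and 286 CPM against 0, 27.5 and 14.01, and Ppt1, a lysosomal thioesterase, at 942, 775 and 798 CPM against 39.2, 124 and 46.7. Wdfy4, needed for cross-presentation in cDC1, was at 583, 818 and 852 CPM against 196, 459 and 205, so it was shared more widely.

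Cst3, which encodes cystatin C, a protease inhibitor abundant in dendritic cells, was at 24958, 20714 and 23857 CPM in the cDC1-type and 4638, 3349 and 5696 CPM in the cDC2-type, with folds of 5.38 (4.86 to 5.96), 6.18 (5.71 to 6.70) and 4.19 (3.93 to 4.47). Its levels in all other kept cells of the tumors were 465, 532 and 491 CPM, so both types lay above them. The inhibitory receptor Btla was at 318, 297 and 351 CPM against 29.4, 41.3 and 56.0.

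Among the 181 genes lower in the cDC1-type were genes of the cDC2 list and of the monocyte lineage. Of 14 measured cDC2 genes, 10 were 2-fold lower in all 3 tumors, beside 3.89% of all genes (8 over all members, beside 2.61%). The list's median log2 ratio was -2.48. Mgl2, a galactose-binding lectin, was at 53.0, 37.2 and 97.1 CPM in the cDC1-type and 1628, 973 and 2600 CPM in the cDC2-type, which is 30.7-fold, 26.2-fold and 26.8-fold higher in the latter. Sirpa was at 0, 5.31 and 0 CPM against 255, 280 and 159, and Irf4 at 0, 0 and 5.39 CPM against 186, 133 and 93.4. Zeb2, a repressor that opposes the cDC1 fate, was at 13.3, 37.2 and 5.39 CPM against 608, 794 and 471.

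Plet1 was on the cDC2 list and went the other way. It was at 1247, 409 and 1224 CPM in the cDC1-type against 118, 0 and 285 CPM in the cDC2-type, 10.6-fold (5.79 to 21.2) higher in KPCA.A and 4.30-fold (3.23 to 5.80) in KPCA.C. Of the macrophage and monocyte list, 6 of 12 genes, among them Csf1r, Lyz2 and Mrc1, were 2-fold lower in the cDC1-type in all 3 tumors, beside 3.89% of all genes. Most Lyz2 of the cDC2-type lay in 3 of 11, 8 of 22 and 3 of 12 cells. These held 61, 357 and 123 UMIs, against 4, 12 and 12 in the rest. Zbtb46 was found in 2, 0 and 0 of these cells and Flt3 in 0, 3 and 0. In the rest Zbtb46 was found in 4 of 8, 7 of 14 and 5 of 9 cells, and Flt3 in 1, 5 and 5. The part of cells without either gene in the differences between the types was not tested. The growth factor receptor gene Csf1r was at 13.3, 5.31 and 0 CPM against 275, 252 and 131, and S100a4, a calcium-binding protein gene, at 0, 15.9 and 43.1 CPM against 2265, 2432 and 999.

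Of 10 receptors of cell traffic, 5, among them Ccr1, Ccr2 and Cd44, were 2-fold lower in the cDC1-type in each tumor, beside 3.89% of all genes. Ccr2, which guides cells from the blood to inflamed tissue, was at 172, 297 and 194 CPM against 833, 1615 and 565. Ccr1 was at 0 CPM in the cDC1-type of each tumor and at 186, 59.6 and 364 CPM in the cDC2-type. Of 10 cytokines and chemokines, 4 (Il1b, Ccl6, Ccl9, Ccl24) were lower in the cDC1-type and 0 higher, beside 3.89% and 1.48% of all genes. Ccl9 was at 0, 10.6 and 5.39 CPM against 235, 491 and 401.

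Antigen presentation was closer between the types. The counts in this paragraph stand beside 1.48% of all genes higher and 3.89% lower in the cDC1-type in all 3 tumors. Of 11 MHC class II genes, 1 was 2-fold lower in the cDC1-type in all 3 tumors, the protease gene Ctss at 557, 446 and 442 CPM against 1579, 1519 and 1634, and the median was -0.27. Of 16 genes of the MHC class I pathway, 2 were higher in the cDC1-type, the peptide transporter Tap2 (159, 122 and 221 CPM against 39.2, 41.3 and 56.0) and the immunoproteasome subunit Psmb9 (464, 451 and 577 CPM against 206, 115 and 229), with a median of 0.18. Of 21 transcription factors, Irf8 and Id2 were higher and Irf4, Zeb2, Klf4, Tcf4 and Runx1 lower in all 3. Of 18 hypoxia and glycolysis genes 0 were 2-fold apart in all 3 in either direction.

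**Figure D3:**
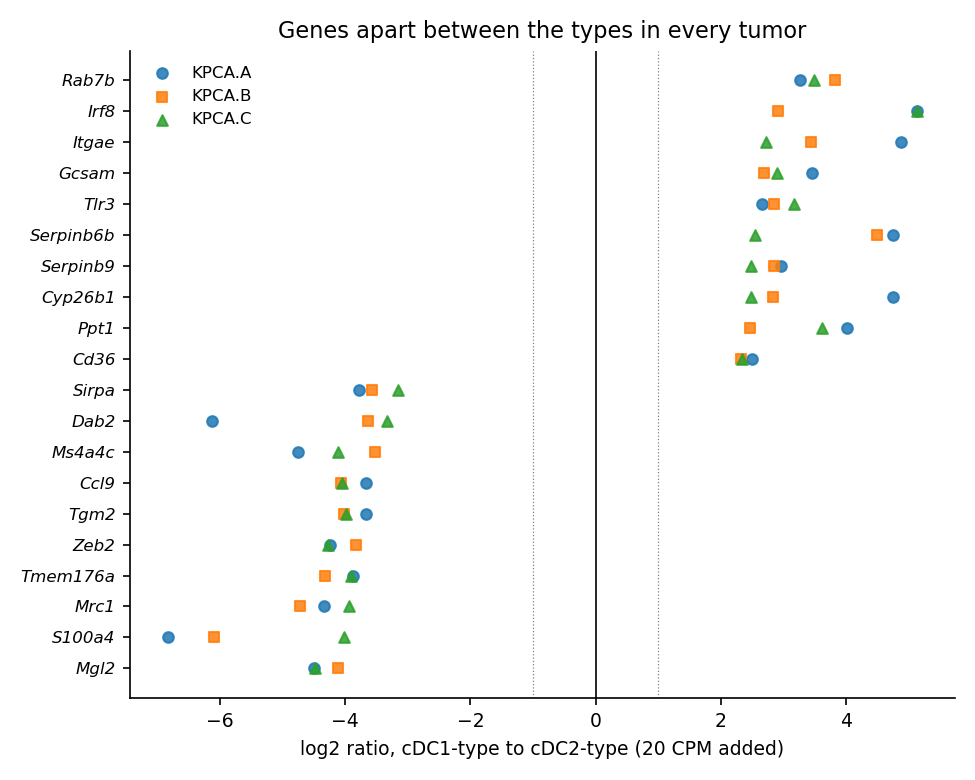
Points give the log2 ratio (x axis, 20 CPM added) of cDC1-type to cDC2-type in KPCA.A, KPCA.B and KPCA.C for the 10 genes per direction that lay furthest apart in every tumor (y axis), and dotted lines mark 2-fold. The ratio for Irf8 is 2.90 in KPCA.B and above 5 in the other two, and for Mgl2 it is below -4 in all 3.

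The barcodes with none of Xcr1, Clec9a and Cd209a were examined after the data were seen. In KPCA.C, the 12 of them without genes of another cell type had Sirpa at 193 CPM, found in 12 of 12, Mgl2 at 1761 CPM and Irf8 at 183 CPM, 33 of its 39 UMIs in 1 barcode. These levels were nearer those of the cDC2-type than those of the cDC1-type. They differed from the cDC2-type of KPCA.C in Mrc1, the mannose receptor, at 4.70 CPM against 453, in Plet1 at 977 against 285, in Il1b at 1108 against 243, and in Il1r2, the decoy receptor for interleukin-1, at 498 against 88.7. Cst3 was at 14309 CPM, between the types. Whether they are a population or cDC2 cells whose Cd209a was not captured was not tested.

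Set beside like cells of the same libraries, the dendritic barcodes differed in their own genes and in macrophage genes. Macrophages were taken as cells with at least 5 UMIs of H2-Ab1, at least 3 of C1q and at most 1 of the dendritic markers (458, 413 and 523 cells in the tumors), and monocytes as cells with Ly6c2 and Ccr2, under 5 UMIs of H2-Ab1 and no dendritic marker (41, 41 and 79). Levels of Flt3, H2-Ab1 and C1q were thus fixed in part by the choice. Flt3 was at 111, 83.5 and 106 CPM in the dendritic barcodes of the tumors, at 0.212, 0 and 0.0966 CPM in the macrophages and at 0 in the monocytes. Kmo, a tryptophan-degrading enzyme gene that the rule did not use, was at 369, 343 and 291 CPM against 6.77, 8.32 and 2.99 in the macrophages and 13.73, 13.97 and 4.004 in the monocytes. Cst3 was at 14267, 10856 and 14187 CPM against 1268, 1005 and 909 in the macrophages. Apoe, a lipid carrier of macrophages, was at 27.7, 123 and 40.8 CPM against 4982, 3418 and 3291. H2-Ab1 was at 6438, 6679 and 5866 CPM against 3677, 3219 and 2112. Mature dendritic cells numbered 4, 5 and 5, too few for a comparison of their genes.

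The next comparison set the tumors against each other in the 91 barcodes, with 5467 genes at 30 UMIs or more. Of these, 0.421% were 2-fold above both other tumors in KPCA.A and 0.677% below, 0.439% and 1.43% in KPCA.B, and 0.567% and 0.457% in KPCA.C. Between pairs of tumors over all 108 barcodes, the share of genes 2-fold higher and lower was 4.58% and 2.9% for KPCA.A against KPCA.B, 1.61% and 2.05% for KPCA.A against KPCA.C, and 1.1% and 3.45% for KPCA.B against KPCA.C. KPCA.B was the tumor most often lower than both others. The genes named below are from the 4 per direction and tumor that lay furthest from the nearer of the other tumors, with the lists.

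In KPCA.B, Cxcl9, a chemokine induced by interferon gamma that attracts T cells, was at 742 CPM (663 to 828). KPCA.A had 73.9 CPM (42.2 to 120) and KPCA.C 81.6 (60.6 to 108). That is 9.09-fold (6.73 to 12.5) above KPCA.C and 10.0-fold (6.09 to 17.8) above KPCA.A. It was found in 7 of 31 barcodes. Of its 320 UMIs, 312 lay in 4 of the 8 cDC1-type cells and 174 in 1 of them, so few cells carried it. All other kept cells had 49.6, 85.9 and 36.5 CPM. Over all 108 barcodes the levels were 40.3, 597 and 382 CPM, and KPCA.B was then 1.56-fold (1.33 to 1.82) above KPCA.C. Most of that level in KPCA.C, 283 UMIs, lay in 1 barcode with many UMIs of fibroblast genes and 0 of Ptprc. Serpina3g, a protease inhibitor gene, was at 260 CPM in KPCA.B against 46.2 and 71.8.

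Summed over the types, Il1r2 and Il1b were lowest in KPCA.B. The level of Il1r2 there was 9.28 CPM (2.53 to 23.8). KPCA.A had 226 CPM (167 to 299) and KPCA.C 251 (213 to 294), so they were 24.4-fold (8.94 to 93.1) and 27.1-fold (10.4 to 101) higher. Il1b, which encodes interleukin-1 beta, was at 794, 102 and 503 CPM in the 3 tumors. All other kept cells had 151, 36.6 and 102 CPM, so it was lower in KPCA.B there too. In KPCA.A 1 cDC2-type barcode held 78 UMIs of Il1b. In KPCA.C most UMIs of both genes lay in the 12 barcodes with none of Xcr1, Clec9a and Cd209a, of which KPCA.B had 1. Within the cDC2-type, Il1b of KPCA.B and KPCA.C differed by less than 2-fold. Both genes were lowest in KPCA.B within each type, but on few UMIs in the cDC1-type. The part of the mix of types in these differences was not tested. Tnfrsf9, which encodes the co-stimulatory receptor 4-1BB, was at 120, 0 and 68.6 CPM, at least 9.86-fold higher in KPCA.C than in KPCA.B with 3 UMIs set for 0, and was carried by 3 and 4 barcodes in the other tumors.

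Ifitm1, an interferon-induced membrane protein gene, was at 891, 151 and 2712 CPM, so KPCA.C exceeded KPCA.B 17.99-fold (14.04 to 23.4) and KPCA.A exceeded it 5.91-fold (4.44 to 7.96). All other kept cells had 214, 119 and 99.8 CPM, so KPCA.C was lowest there and highest in the dendritic barcodes. Within types Ifitm1 was at 92.8, 26.6 and 2309 CPM in the cDC1-type and 735, 262 and 2124 CPM in the cDC2-type. In the cDC1-type of KPCA.C it was found in 5 of 9 cells, and 228 of 428 UMIs lay in 1 of them.

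**Figure D4:**
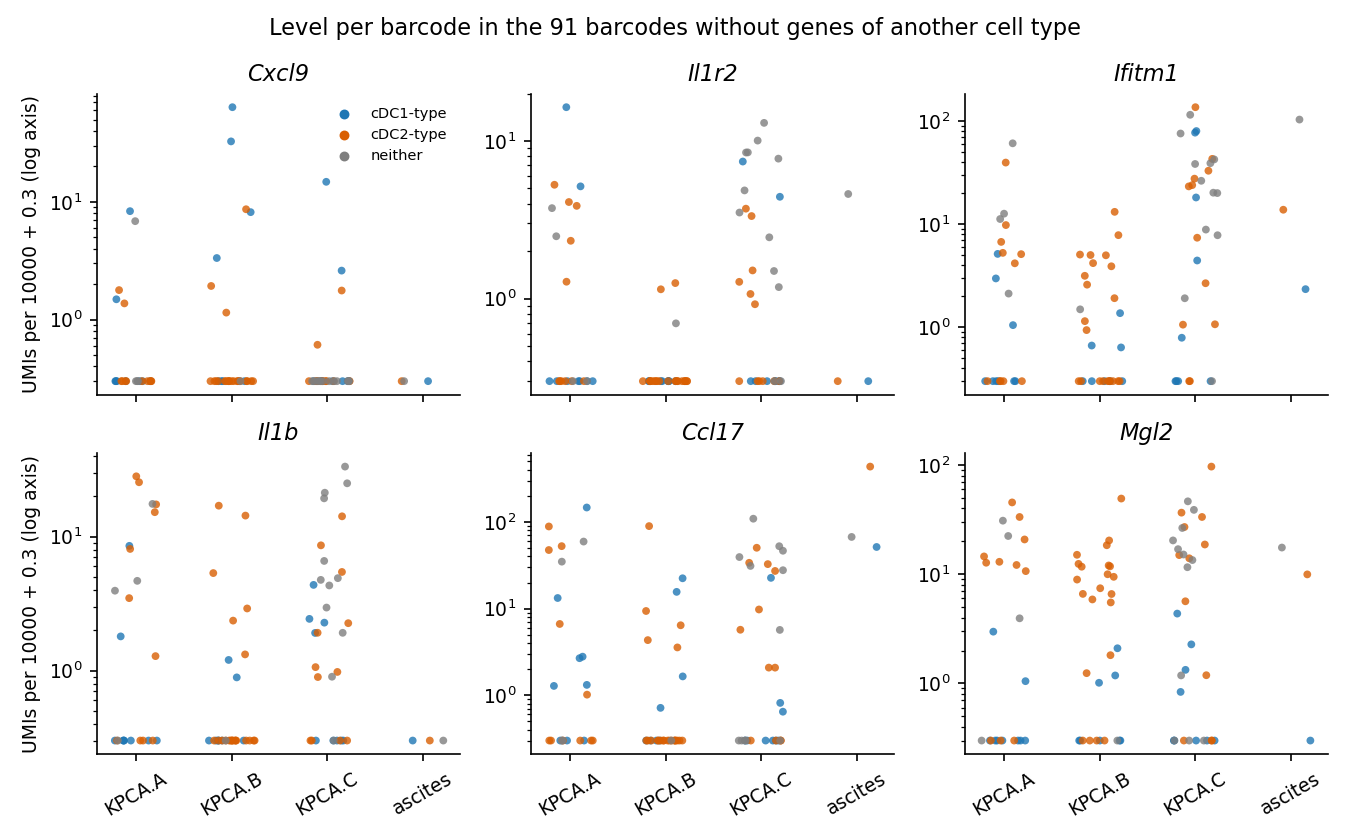
Each point is 1 of the 91 barcodes. The y axis (log) is the level of the gene named above each panel in UMIs per 10000 plus 0.3, by library (x axis), with colour for the type. Cxcl9 is high in 4 cDC1-type cells of KPCA.B, and Ccl17 is present in all 3 ascites cells.

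Among the genes highest in KPCA.C, the metallothionein gene Mt1, which answers metals and stress, was at 185, 37.1 and 748 CPM, against 393, 280 and 851 CPM in the other cells. The heat-shock gene Hspa1b was at 9.24, 13.9 and 116 CPM, with 62 of 71 UMIs of KPCA.C in 1 barcode. Lowest in KPCA.C were Serpinb6b at 360, 188 and 40.8 CPM, Top2a, needed for chromosome segregation, at 314, 332 and 84.9 CPM, the histone gene Hist1h1b at 102, 121 and 17.96 CPM, and the DNase gene Dnase1l3 at 50.8, 107 and 4.90 CPM.

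In KPCA.A the genes furthest above both others rested on few cells or were found everywhere. Ccr7, which guides dendritic cells to lymph nodes, was at 277 CPM against 20.9 and 1.63, with 59 of 60 UMIs in 1 barcode. Ccl22, a chemokine of mature dendritic cells, was at 762 CPM against 69.6 and 147, with 153 of 165 UMIs in 1 barcode. The pancreatic lipase gene Pnlip was in 24 of 24 barcodes at 453 CPM, against 118 and 50.6, and all other kept cells had 330, 479 and 54.5 CPM of it. Lowest in KPCA.A were the interferon-inducible Ifi203 (46.2, 195 and 163 CPM) and Klf4, a factor of a cDC2 subset (60.0, 179 and 158 CPM).

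Most measured hypoxia and glycolysis genes were lower in KPCA.B than KPCA.C, mainly in the cDC2-type. Of 21 measured genes, 13 lay at least 2-fold lower in KPCA.B, 0 were higher, and all 21 lay below 0, with a median log2 ratio of -1.07. Of all 5467 genes, 3.09% were 2-fold lower and 1.66% higher in that comparison, with a median of 0.04. Within the cDC2-type 12 of 18 genes were 2-fold lower (median -1.26, beside 4.7% of all genes), and within the cDC1-type 3 of 12 (median -0.18, beside 5.13%). The difference between the types was not tested. Hilpda, a lipid droplet protein gene of hypoxic cells, was at 69.3, 2.32 and 165 CPM (the KPCA.B value is 1 UMI), Bnip3, which marks mitochondria for removal, at 23.1, 16.2 and 119 CPM, and Pdk1, which diverts pyruvate from mitochondria, at 18.5, 13.9 and 113 CPM. The growth factor gene Vegfa was at 27.7, 6.96 and 68.6 CPM. The glycolytic gene Gapdh was at 1797, 1517 and 2124 CPM and so differed by less than 2-fold.

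The same list was lower in KPCA.B in all other kept cells, where 16 of 21 genes passed 2-fold with a median of -1.33, and in the macrophages, where 8 did with a median of -0.83. In the dendritic barcodes 2 of 21 genes were 2-fold higher in KPCA.A than in KPCA.B (median 0.30, beside 2.76% of all genes), 13 in the other cells (median 1.16) and 5 in the macrophages (median 0.59). KPCA.A lay below KPCA.C by 2-fold in 5 genes of the dendritic barcodes (median -0.56, beside 1.96% of all genes) and in 0 of the other cells (median -0.08) and of the macrophages (median -0.32). The macrophages thus lay between the dendritic barcodes and the other cells in both comparisons with KPCA.A. In KPCA.B against KPCA.C they did not, since their median of -0.83 was the smallest fall. The differences between cell groups were not tested. Over all 108 barcodes the median log2 ratio of KPCA.B to KPCA.A was -0.88, and it was 0.80 with cells thinned to 1500 UMIs. Its sign turned at 1500 UMIs but not at 1000, and thinning also left fewer cells. The median of KPCA.B to KPCA.C was -0.58 when thinned to 1500 UMIs. Within the types, Hilpda was at 108, 0 and 308 CPM in the cDC2-type and 39.8, 5.31 and 21.6 CPM in the cDC1-type, and 42 of the 66 UMIs of KPCA.C lay in 1 cDC2-type cell.

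**Figure D5:**
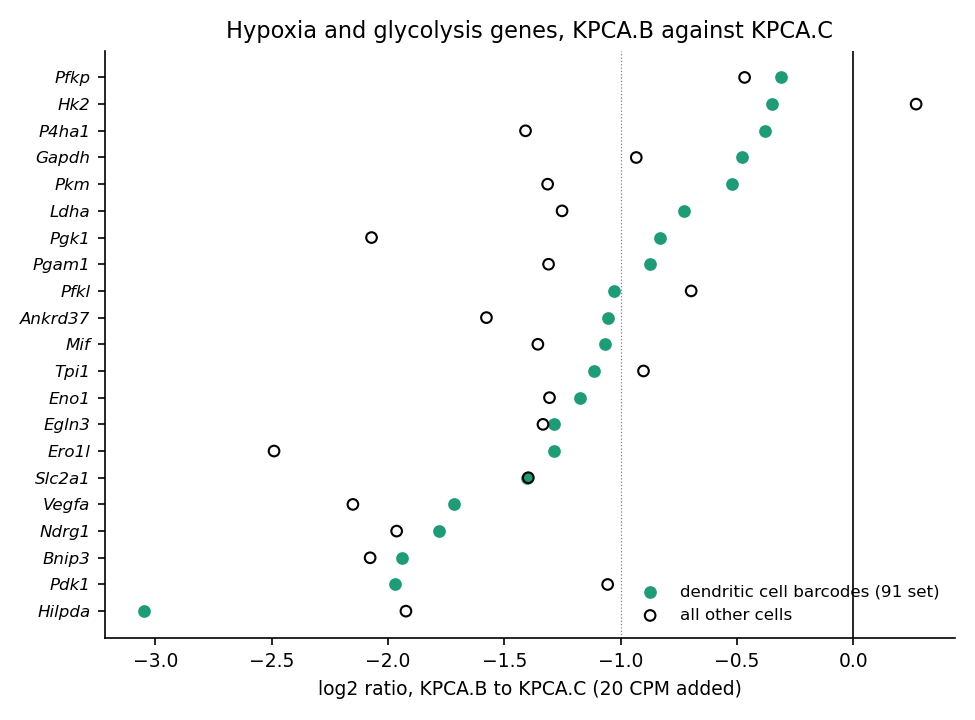
Points give the log2 ratio of KPCA.B to KPCA.C (x axis, 20 CPM added) for 21 hypoxia and glycolysis genes (y axis), filled for the 91 dendritic barcodes and open for all other kept cells. The dotted line marks 2-fold lower. All filled points lie below 0, and 13 lie at or beyond the dotted line.

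Some genes of T cell contact were lower in KPCA.B, but not within the cDC2-type. Of 13 co-stimulation and checkpoint genes, 4 were 2-fold higher in KPCA.A than in KPCA.B (Cd80, Cd83, Cd274, Pdcd1lg2; median 0.44, beside 2.76% of all genes) and 4 were 2-fold higher in KPCA.C than there (Cd80, Tnfsf9, Cd274, Pdcd1lg2; median -0.46, beside 3.09%). Over all 108 barcodes the counts were 1 and 3 of 14, beside 4.58% and 3.45% of all genes. Within the cDC2-type the medians over 6 measured genes were -0.43 for KPCA.A to KPCA.B and 0.0019 for KPCA.B to KPCA.C. KPCA.B had the highest cDC2-type share, and its part in these counts was not tested. Cd274, which encodes PD-L1, was at 106, 23.2 and 84.9 CPM, and Cd80, a ligand of CD28 and CTLA-4, at 50.8, 11.6 and 70.2 CPM. Cd86, the other CD28 ligand, was at 111, 74.2 and 109 CPM and did not pass 2-fold.

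Of 15 genes of mature dendritic cells, 7 in KPCA.A were 2-fold above KPCA.B and 0 below (median 0.66, beside 2.76% of all genes in each direction). Over all 108, 3 of 16 were above, beside 4.58% of all genes. In KPCA.A Ccr7 and Ccl22, genes of mature dendritic cells, rested mainly on 1 barcode each, with 59 and 153 UMIs. In KPCA.B 5 were 2-fold below KPCA.C and 1 above (median -0.17, beside 3.09% and 1.66% of all genes). Within the cDC2-type the medians over 7 genes had the other sign, at -0.29 and 0.39.

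Of 17 cDC2 genes, 5 were 2-fold lower in KPCA.B when set against KPCA.C (Mgl2, Plet1, Tnfsf9, Ccl17, Epcam) and 1 higher (Cd7), with a median of -0.64 beside 3.09% and 1.66% of all genes. Within the cDC2-type the median was 0.017, so the list as a whole was not lower there. Mgl2 was at 1136, 508 and 1551 CPM, and Ccl17, a chemokine for T cells with the receptor CCR4, at 2291, 450 and 1690 CPM. Within the cDC2-type alone Ccl17 was at 1834, 445 and 1536 CPM, lowest in KPCA.B as well. Arg1, the arginine-degrading enzyme, was at 1219 CPM in the cDC2-type of KPCA.C against 88.2 in KPCA.A and 9.18 in KPCA.B. Of its 261 UMIs, 55, 92 and 110 lay in 3 of the 12 cells, the same 3 that had 35, 75 and 13 UMIs of Lyz2 and 0 of Flt3 and Zbtb46.

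Counts of division genes differed with the set of barcodes. Of 23 mitosis and replication genes, 8 were 2-fold higher in KPCA.A than in KPCA.C (beside 1.43% of all genes) and 6 in KPCA.B (beside 1.66%), with medians of 0.56 and 0.49, and 2 and 0 were lower. With all 108 barcodes 0 of 27 were 2-fold higher in either comparison and 2 and 1 were lower, beside 2.05% and 3.45% of all genes. The medians were then 0.22 and -0.00051. Within types the direction varied, with medians of -1.19 (KPCA.A to KPCA.C) and 0.54 (KPCA.B to KPCA.C) in the cDC1-type and 1.20 and -0.47 in the cDC2-type. The macrophages had medians of 0.34 and 0.46, and all other kept cells 0.084 and 0.027. These levels rest on few cells. Top2a in the cDC2-type of KPCA.A came from 1 cell (40 of 40 UMIs), and in the cDC1-type of KPCA.B from 5 of 8 cells.

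Among the 91 barcodes, 0 of 11 MHC class II genes and 0 of 22 genes of oxidative phosphorylation passed 2-fold in any pair of tumors, and of 22 genes shared by conventional dendritic cells 0 did between KPCA.B and either other tumor. Over all 108 barcodes 0 of the oxidative phosphorylation genes passed. KPCA.A then had 4 of the 22 shared genes and 1 MHC class II gene 2-fold below KPCA.B, beside 2.9% of all genes. It had 4 and 2 below KPCA.C, beside 2.05%. Cd74, the invariant chain of MHC class II, was at 18544, 18641 and 16939 CPM in the 91.

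Of 14 interferon-stimulated genes 0 passed 2-fold between KPCA.A and KPCA.B (median -0.16, beside 2.76% of all genes in each direction). In KPCA.A 1 was higher and 1 lower than in KPCA.C (median -0.44, beside 1.43% and 1.96% of all genes). KPCA.B lay 2-fold below KPCA.C in 2, Isg15 and Bst2 (median -0.11, beside 3.09%). With all 108 barcodes 2, 9 and 5 of 19 were lower in these comparisons, with medians of -0.49, -0.9996 and -0.50, beside 2.9%, 2.05% and 3.45% of all genes. The list is longer there because more of its genes reach 30 UMIs with the 17 barcodes added. In the cDC1-type of the 91 the medians over 7 genes were -0.46, -1.035 and -0.545.

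The dissociation stress list, genes induced while tissue is digested, moved in the same comparison as the hypoxia list, with 7 of 21 genes 2-fold lower in KPCA.B than KPCA.C and 0 higher (median -0.73, beside 3.09% of all genes). All other kept cells had 8 lower (median -0.72). Its part in the other differences was not tested.

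The last comparison set the 3 ascites barcodes, with 14684 UMIs in all, against the tumors over all 108. The ascites was 2-fold above all 3 tumors in 332 of 7198 genes (4.61%) and below all 3 in 3104 (43.1%), and the median log2 ratio of all genes to the tumors was -1.16, -1.08 and -1.14. At 68.1 CPM for 1 UMI, genes at low levels in the tumors could not be detected in 3 cells.

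Over all 108 barcodes Ccl17 stood furthest above. Against the 91 it came after the metallothionein gene Mt2 (log2 ratios to the nearest tumor of 3.05 and 4.57), whose 26 UMIs all lay in 1 ascites cell and which was at 2988 CPM in the other ascites cells. Ccl17 had 25, 225 and 31 UMIs in the 3 barcodes, or 5119, 43537 and 6693 CPM in the cDC1-type, the cDC2-type and the remaining cell. Summed, it was at 19136 CPM (16964 to 21510), against 2291, 450 and 1690 CPM in the 91 barcodes of the tumors, and over all 108 it was 17.1-fold (14.7 to 19.8) above KPCA.A, 52.9-fold (43.9 to 63.9) above KPCA.B and 16.1-fold (14.1 to 18.4) above KPCA.C. Against the 91 the folds were 8.35, 42.5 and 11.3. Most of the sum came from 1 cell, but each of the 3 lay above the summed level of every tumor, which takes in cells without Ccl17. Single tumor cells reached 164 of 11195 UMIs in KPCA.A and 280 of 25757 in KPCA.C. The cDC1-type and the remaining ascites cell had 25 of 4891 and 31 of 4638 UMIs, so these 2 did not lie above every tumor cell. With barcodes carrying a UMI of Adgre1, Fcgr1, S100a8, Krt8 or Krt18 removed, the log2 ratio to the nearest tumor was 0.80 in place of 3.99. All other ascites cells had 212 CPM, with UMIs in 264 of 2918, against 23, 45.3 and 17.2 CPM in the tumors' other cells.

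Cst3 had 230, 53 and 137 UMIs, or 28603 CPM, 3.27-fold (2.95 to 3.62), 3.23-fold (2.92 to 3.57) and 2.83-fold (2.56 to 3.12) above the tumors over all 108 and 2.005-fold, 2.63-fold and 2.02-fold above the 91, and the order of the types was the same as in the tumors. It was at 2853 CPM in the other ascites cells, also above the other tumor cells. Ifitm1 had 1, 7 and 48 UMIs, and H2-Ab1 had 30, 65 and 46. Mt1 was at 4086 CPM, 4.64-fold (3.51 to 6.04) above KPCA.C, but the other ascites cells had 13012 CPM.

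Below the tumors were genes with no UMI in ascites. Ciita, the switch of MHC class II transcription, was at 353, 543 and 351 CPM in the tumors, at least 1.73-fold, 2.66-fold and 1.72-fold higher with 3 UMIs set for 0, and at least 3.35-fold, 3.29-fold and 2.43-fold in the 91. Pkm, a glycolytic enzyme, was at 857, 544 and 947 CPM, at least 4.19-fold, 2.67-fold and 4.63-fold higher. The proton pump gene Atp6v0c was at 378, 434 and 365 CPM and at 0 in ascites, and the other ascites cells had 2.23 CPM of it against 443, 481 and 525 in the tumors' other cells, so this difference ran through the whole library. Irf8 had 1 UMI, in the cDC1-type cell, and a ratio of 0.110 (0.00277 to 0.617) to KPCA.A over all 108 and 0.067 (0.00169 to 0.377) to the 91. Xcr1 and Zbtb46 had 0 UMIs, where 0 allows up to 3 UMIs. The 3 libraries of tumors and the ascites library also differed in depth and in the version of the counting software, which cannot be told apart from the tissue.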

How the data were processed

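The deposited files hold raw UMI counts per gene and barcode, per the file headers, from 1 droplet library for each of 3 omental tumors and the ascites. The authors made them with Cell Ranger against mm10, with version 4.0.0 in the headers of the tumors, 3.0.2 in that of ascites and 3.1.0 in the submitters' processing notes. The tumor files list 32285 genes and the ascites file 31053, and the 30406 shared ones were used. Cells were kept with at least 300 genes, 500 UMIs and at most 15% mitochondrial UMIs. No doublet caller was run. Counts were summed over the cells of a library and divided by their total (CPM). With 1 library per group there was no test. Genes with at least 30 UMIs were compared on a log2 scale with 20 CPM added, and 2-fold was the limit for a call. Intervals are 95% exact (Poisson, Clopper-Pearson or conditional on the sum), cover counting error only, and a count of 0 was bounded by 3 UMIs. Named genes are those of the rule, up to 6 per list by level plus any list member past 2-fold, and the furthest 10 (ascites, types) or 4 (tumors) per direction, with at least 100 CPM in the higher group and 50% of the level in its other cells. Of 439 list genes in 26 lists, 430 were in the files. Some genes that this rule or the lists name are not reported here. The members and lists were chosen with earlier results of these data known. Alternatives varied the rule, depth, scaling and limits. The code ran under Python 3.11.15 with pandas 2.3.3, scipy 1.17.1, matplotlib 3.10.9 and numpy 2.4.6 and was tested on simulated data.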

Additional observations from a re-analysis of the deposited data

Results flagged for a closer look

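For 6 of the 157 list genes with at least 100 UMIs, the cDC1-type was at least 2-fold above the cDC2-type in 1 tumor and at least 2-fold below it in another. Smaller changes of sign were not counted. The differences between tumors were not tested, and several rest on 1 cell. The ratios below are for KPCA.A, KPCA.B and KPCA.C in that order.

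The division genes were higher in the cDC2-type of KPCA.A and in the cDC1-type of the others. Top2a was at -3.63, 4.11 and 0.57, Mki67, a marker of dividing cells, at -1.05, 3.84 and 0.83, Stmn1, a microtubule regulator, at -2.51, 2.10 and 0.75, and Hmgb2, a chromatin protein gene, at -1.85, 2.25 and 1.35. In the cDC2-type of KPCA.A, 1 barcode held 40 of 40 UMIs of Top2a, 19 of 19 of Mki67, 25 of 25 of Stmn1 and 79 of 83 of Hmgb2.

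The chemokine gene Ccl22 was at 6.70, -2.28 and -4.21. In KPCA.A 153 of 155 UMIs of the cDC1-type lay in 1 barcode, and in the cDC2-type 28 of 28 did in KPCA.B and 73 of 75 in KPCA.C. Ero1l, an oxidase of the endoplasmic reticulum on the hypoxia list, was at 1.70, 0.041 and -2.56, with 40 of 62 UMIs of the cDC2-type of KPCA.C in 1 barcode.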

How the results depend on the processing

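With 1 library per group no replicate could be left out. No paired analysis was possible because each group had 1 library. Of 156 summary values under 16 settings, 123 stayed within the limits set, 32 moved and 1 changed sign, and of 1532 values of single genes 1308 stayed, 212 moved and 12 changed sign. The cause was not tested. Values here are over all 108 barcodes.

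The shares of kept cells in the tumors moved most with depth, and that in ascites with the marker sum. Thinned to 1500 UMIs they were 0.479% in KPCA.A, 0.506% in KPCA.B and 0.292% in KPCA.C, and at 1000 UMIs 0.249, 0.246, 0.141 and, in ascites, 0%. A marker sum of 3 gave 0.775% in KPCA.C, a sum of 1 (added after seeing the data) 1.59% in KPCA.A, 1.94% in KPCA.C and 0.719% in ascites, and no C1q UMI 0.889% in KPCA.B and 0.710% in KPCA.C. The cDC1-type share in KPCA.C was 47.8% at 1500 UMIs in place of 28.2%, and the cDC2-type shares at 1000 UMIs were 58.6% in KPCA.A and 51.1% in KPCA.C in place of 37.9 and 30.8%.

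The median log2 ratio of cDC1-type to cDC2-type was 2.28 for the cDC1 list, 4.70 at 1500 UMIs, 3.01 with 5 CPM added, 1.53 with 50 and 3.07 without barcodes with UMIs of Adgre1, Fcgr1, S100a8, Krt8 or Krt18. That of the cDC2 list was -2.11, -4.21 at 1500 UMIs and -2.82 with at least 100 UMIs per gene. The hypoxia median of KPCA.B to KPCA.A was -0.88 and turned to 0.80 at 1500 UMIs, but its sign did not turn at 1000. That of KPCA.B to KPCA.C was -0.58 at 1500 UMIs and -0.46 at 1000.

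The log2 ratio of Ccl17 in ascites to the nearest tumor was 3.99. It was 5.29 with a marker sum of 3, 3.71 with H2-Ab1 of at least 10, 3.51 with no C1q UMI, 4.30 at 1500 UMIs, 3.47 with median-of-ratios scaling, 3.53 as a mean over cells, 0.80 without the barcodes with UMIs of those 5 genes and 3.05 without the barcodes carrying genes of another cell type.

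Signs changed for single genes in a few settings. With a marker sum of 3, Klrd1 in ascites was at -2.81. With H2-Ab1 of at least 10, Ccr9 in KPCA.A was at 0.29. With no C1q UMI, Cxcl9 in KPCA.A was at 0.51, Saa3 in KPCA.A at -1.62 and Tdo2 in KPCA.C at 0.55. Without barcodes with UMIs of Adgre1, Fcgr1, S100a8, Krt8 or Krt18, Ccl9 was at 0.54 in KPCA.C, Saa3 at -3.34, Lyz2 in KPCA.B at -1.23, Hist1h1b in KPCA.C at 0.32 and Klrd1 at -2.92. Without the barcodes carrying genes of another cell type, Ly6c2 in KPCA.A was at 0.38 and Trf in KPCA.C at 0.15.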

Other observations

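The cDC2-type cells of the tumors held a part with much Lyz2, the lysozyme gene of macrophages and monocytes. Split after the data were seen at 10 UMIs of Lyz2, 3, 8 and 3 cells lay above and 8, 14 and 9 below. Kmo was at 138, 140 and 18.3 CPM in the cells above and at 511, 608 and 376 CPM in those below, and Cst3 at 2529, 1035 and 1448 against 5210, 4480 and 7146 CPM. Klrd1, a lectin receptor gene, was at 46.0, 28.0 and 0 CPM against 212, 266 and 301. In the other direction, Adgre1, which encodes the macrophage antigen F4/80, was at 138, 97.9 and 18.3 CPM against 0, 6.83 and 6.26, which are 3, 7 and 1 UMIs against 0, 1 and 1. Ly6c2 was also higher in the cells above, at 230, 140 and 183 CPM against 37.4, 61.5 and 18.8. Csf1r was lower in KPCA.A only, at 184, 517 and 330 against 299, 123 and 62.6 CPM. Fcgr1 was lower in KPCA.A and KPCA.C, at 0, 97.9 and 18.3 against 87.3, 41.0 and 87.7 CPM. Mgl2 was lower in the cells above in KPCA.A and KPCA.C and nearly level in KPCA.B, at 690, 923 and 1577 against 1882, 997 and 2950 CPM.

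In the 3 ascites cells, the 22 genes of oxidative phosphorylation had median log2 ratios of 1.12, 1.001 and 1.10 to KPCA.A, KPCA.B and KPCA.C, while the median of all genes was -1.16, -1.08 and -1.14. The latter takes in genes too low to be detected at 68.1 CPM per UMI, so it is a poor baseline for genes at high levels. Whether the other ascites cells differed from the tumors in this list was not tested. Over the 21 ascites cells with a marker sum of at least 1, Ccl17 had 636 UMIs in 17 of 21 cells (9556 CPM) and Ifitm1 was found in 18 of 21 (5484 CPM).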
